A study of Mus musculus with 4 samples.

Results

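Quinone and carbonyl reductases are enzymes that use NADPH or related carriers to reduce quinones, ketones and aldehydes to less reactive alcohols and hydroquinones. The genes described here were chosen by symbol. They are Nqo1 and Nqo2 (quinone reductases), Cbr1, Cbr2 and Cbr3 (carbonyl reductases), and Akr1a1, Akr1b3, Akr1b8 and Akr1b10 (aldo-keto reductases). All 9 are among the 24444 genes of the deposited table, and all 9 were high enough to be tested. Poly(A) RNA was taken from oesophageal cells grown in culture, with C57BL/6J as the labelled strain, in 2 libraries labelled Nrf2-HET, whose label gives a CRISPR/Cas9 Nfe2l2-E79Q cassette delivered by microinjection, and 2 libraries labelled Nrf2-WT with no cassette. The column names of both groups carry the word SV40, which the labels do not explain. Neither the animals behind each culture nor their age is given in the sources used here, so the spread between the 2 libraries of a group may be technical.

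Nfe2l2 encodes NRF2, a transcription factor that is held in check by KEAP1 and that switches on detoxification genes when electrophiles or oxidants disable KEAP1. The E79Q substitution lies in the part of NRF2 that KEAP1 binds, and tumours carry it. NRF2 acts with small MAF proteins at antioxidant response elements, and Nqo1 is the classic gene used to read its activity. In the oesophagus, a stratified squamous epithelium exposed to dietary and inhaled electrophiles, such reductases are part of the chemical barrier.

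Several of these genes are close relatives, so coding stretches of related members are shown to make plain how far short reads can separate them. Each is 60 bases long, from position 301 to 360 of the coding sequence on the coding strand, in GENCODE release M21 (GRCm38), and capitals mark bases that differ from the top sequence of its set. The carbonyl reductase genes Cbr3 and Cbr1 lie side by side on chromosome 16 and are identical at 77.8% of aligned coding bases, with 10 differences in this stretch:
Cbr3: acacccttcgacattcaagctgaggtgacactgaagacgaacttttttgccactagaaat
Cbr1: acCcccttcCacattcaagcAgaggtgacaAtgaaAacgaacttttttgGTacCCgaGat

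The Akr1b genes form a cluster on chromosome 6. Akr1b8 is identical to Akr1b10 at 85.4% of aligned coding bases and to Akr1b3 at 72.1%, and the stretch holds 10 and 16 differences:
Akr1b8: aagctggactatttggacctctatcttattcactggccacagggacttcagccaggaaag
Akr1b10: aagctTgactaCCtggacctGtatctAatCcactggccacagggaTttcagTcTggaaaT
Akr1b3: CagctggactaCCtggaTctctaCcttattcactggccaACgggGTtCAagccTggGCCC

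Nqo1, on chromosome 8, and Nqo2, on chromosome 13, are farther apart, at 61.5% identity and with 17 differences in the stretch:
Nqo1: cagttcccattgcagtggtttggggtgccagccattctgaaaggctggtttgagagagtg
Nqo2: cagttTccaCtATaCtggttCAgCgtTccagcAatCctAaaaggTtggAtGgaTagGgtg

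Over whole transcripts, 0 of 1523 windows of 31 bases in Nqo1, 0 of 1033 in Nqo2 and 0 of 1390 in Akr1a1 recur in a transcript of another gene. Cbr3 shares 29 of 1140 windows, all with Cbr1. Akr1b8 and Akr1b10 share 94 windows with each other, 7.08% and 7.01% of theirs. Cbr1 and Cbr2 share 16.9% and 18.3% of their windows with other genes, mostly Gm5678, a predicted gene, and Gm11771, a pseudogene. Akr1b3 stands apart, since 63.5% of its windows recur elsewhere, 828 of 1357 of them in the pseudogene Gm6644. Values of the Akr1b genes, Cbr1 and Cbr2 are therefore uncertain to the extent that reads were shared out, and those of Akr1b3 most of all. Gm6644 is among the genes of the deposited table, while Gm5678 and Gm11771 are not.

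The deposited values are variance-stabilised values on a log2-like scale with a floor of 6.98. Replicate number had been removed from them gene by gene, so the 2 libraries of a group mirror those of the other group in their spread. In values balanced this way, groups that do not overlap and pairs that share a sign are the same fact. Inverting the stabilisation gives normalised counts, which are read counts divided by the size factor of the library. By the same inversion the libraries hold an estimated 15.15 and 13.01 M reads in Nrf2-HET and 14.15 and 12.61 M reads in Nrf2-WT (M, mega). Stratified epithelial markers were abundant in every library, with summed normalised counts of 151609 and 159937 in Nrf2-HET and 153292 and 146129 in Nrf2-WT. These sums are mostly Krt5 and Krt14. Of the 12 markers 8 were called (as defined below), where 40.4% of all genes tested were. Dsg3, Itga6, Krt6a and Krt13 rose by 0.74, 0.73, 0.67 and 0.49, while Krt15, Sox2, Epcam and Krt14 fell by 0.58, 0.45, 0.22 and 0.13. Of 9 fibroblast markers 7 stayed under the filter in every library (a value at least 1 above the lowest in at least 2 libraries was needed for a test), Lum was at the floor throughout, and the sum of the list was 122 and 134 in Nrf2-HET against 425 and 426 in Nrf2-WT. Col1a1 carried most of that gap, with mean normalised counts of 40.8 in Nrf2-HET and 319 in Nrf2-WT, whereas Pdgfrb had 10.6 in Nrf2-HET and 10.03 in Nrf2-WT, and Dcn had 10.8 in Nrf2-HET and lay at the floor in Nrf2-WT. Of 5 smooth muscle markers 3 stayed under the filter, and the sums were 310 and 290 in Nrf2-HET against 978 and 1021 in Nrf2-WT. Acta2 carried most of the smooth muscle gap, with mean normalised counts of 255 in Nrf2-HET and 870 in Nrf2-WT. Tagln had 32.0 in Nrf2-HET and 114 in Nrf2-WT. Of the 3 under the filter, Cnn1 had 4.78 in Nrf2-HET and 14.4 in Nrf2-WT. Myh11 (4.94 in Nrf2-HET, 1.04 in Nrf2-WT) and Des (3.47 in Nrf2-HET, 0.290 in Nrf2-WT) went the other way. Of 7 immune markers 4 (Ptprc, Adgre1, Cd3e and Cd79a) lay at the floor throughout, and the sum, nearly all Cd68, was 371 and 406 in Nrf2-HET against 184 and 164 in Nrf2-WT. Endothelial and Schwann cell markers had no tested member, with sums of at most 23.1 and 19.3. Xist, the RNA of the inactive X chromosome, lay at 7.30 and 7.12 in Nrf2-HET and at 11.99 and 12.17 in Nrf2-WT, while the Y-linked genes Ddx3y, Kdm5d, Eif2s3y and Uty were above the filter in all 4 libraries. Of these Ddx3y and Uty rose by 0.54 ± 0.07 and 0.31 ± 0.07 (limma adjusted p = 1.14e-05 and 0.00158), and Kdm5d and Eif2s3y were not called. Genotype and the differences in Xist and the Y-linked genes cannot be told apart in this design, and the part of these marker differences in the results was not tested.

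In Nrf2-HET cells 4 reductase genes rose, 2 fell and 3 were not called. Nqo1 and Cbr3 rose most, to normalised counts 8.74-fold and 8.70-fold those of Nrf2-WT cells, Akr1b8 and Cbr1 rose less, and Cbr2 and Nqo2 fell modestly. Differences are Nrf2-HET minus Nrf2-WT with the limma SE over 2 replicate pairs, and a gene is called at a Benjamini-Hochberg adjusted p under 0.05 over all 10857 genes tested. Across those genes 40.4% were called, 21.5% higher and 18.9% lower, so a call alone is common in these data. The excess of rises depended on scaling, with 2333 higher and 2055 lower calls here. Median centring turned the balance to 2048 rises against 2313 falls, and quantile normalization to 2155 rises against 2269 falls. Of the 9 members 6 were called, and their median absolute difference was 0.35, against 0.12 over all genes tested. The signed median was 0.02 over the members, which is the value of Akr1b10, and 0.01 over all genes tested. The groups did not overlap in 7 of the 9 members, against 79.2% of all genes tested, so that count is near the background. In RNA from bulk cultures, fewer cells of a type and less RNA per cell cannot be told apart.

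**Figure D1:**
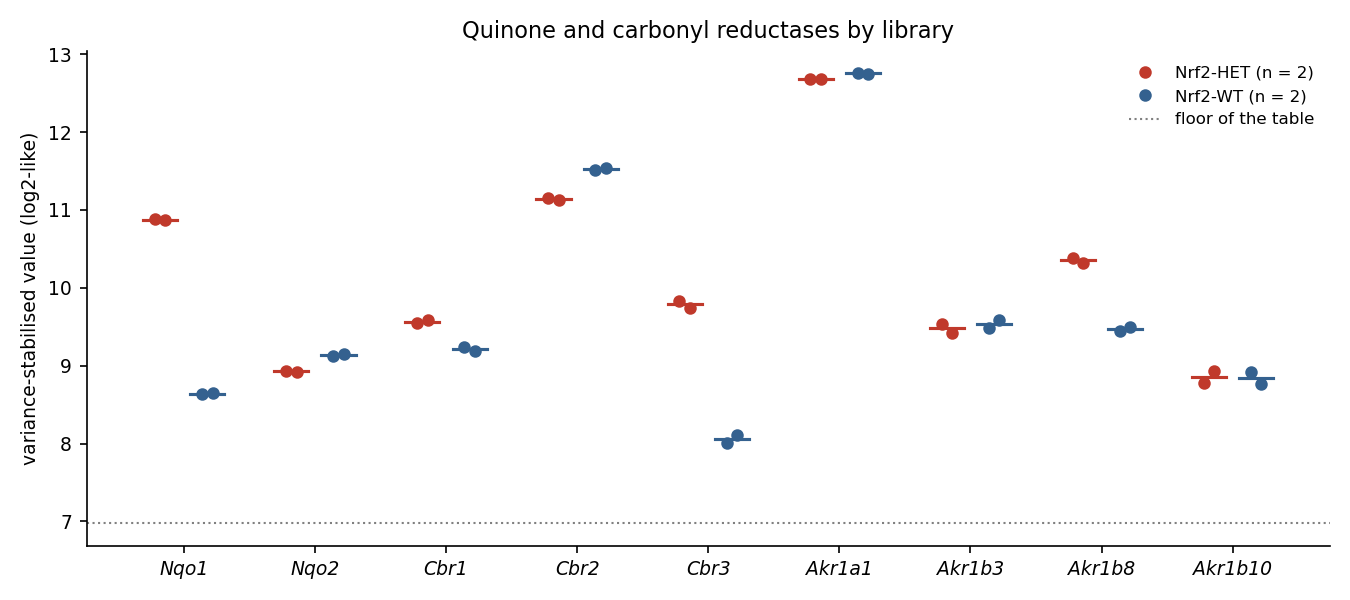
Variance-stabilised value (log2-like, y axis) of each reductase gene (x axis) in the 2 Nrf2-HET libraries (red) and the 2 Nrf2-WT libraries (blue); horizontal bars are group means and the dotted line is the floor of the table at 6.98. The groups stand far apart in Nqo1, Cbr3 and Akr1b8 and overlap in Akr1b3 and Akr1b10.

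Nqo1, which reduces quinones directly to hydroquinones and so avoids semiquinone radicals, had values of 10.88 and 10.87 in Nrf2-HET libraries, against 8.64 and 8.65 in Nrf2-WT libraries. Both Nrf2-HET libraries lay far above both Nrf2-WT libraries. With replicate number removed, the libraries within each group were 0.01 apart, which reflects only the pair differences of 2.25 and 2.22. The difference was 2.23 ± 0.06 (limma adjusted p = 2.27e-13), which placed Nqo1 at rank 1 from the top of the 10857 genes on this scale. As normalised counts, Nqo1 had 1645 and 1629 in Nrf2-HET and 186 and 189 in Nrf2-WT, a ratio of 8.86 in pair 1 and 8.63 in pair 2.

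Its relative Nqo2, which takes electrons from dihydronicotinamide riboside rather than from NADH or NADPH, moved the other way. Nqo2 lay at 8.94 and 8.92 in Nrf2-HET libraries and at 9.13 and 9.15 in Nrf2-WT libraries. The groups did not overlap, and the difference of -0.21 ± 0.06 was called (limma adjusted p = 0.0158). Its normalised count averaged 267 in Nrf2-HET and 340 in Nrf2-WT, 1.27-fold lower in Nrf2-HET.

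Among the carbonyl reductases, Cbr3 showed the widest gap. This NADPH-dependent cytosolic enzyme had values of 9.83 and 9.74 in Nrf2-HET libraries, against 8.01 and 8.11 in Nrf2-WT libraries. The difference was 1.73 ± 0.07 (limma adjusted p = 3.11e-11), at rank 8 from the top. The normalised counts were 678 and 620 in Nrf2-HET and 67.6 and 81.5 in Nrf2-WT, a ratio of 10.03 in pair 1 and 7.61 in pair 2. The ratio of the mean counts, 8.70, is close to the 8.74 of Nqo1, although Cbr3 has the smaller difference on the deposited scale, because that scale compresses values near the floor and Cbr3 is the lower gene in Nrf2-WT cells.

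Cbr1, the other cytosolic member and a reductase of many xenobiotic and prostaglandin ketones, lay at 9.54 and 9.58 in Nrf2-HET libraries and at 9.23 and 9.19 in Nrf2-WT libraries. It rose by 0.35 ± 0.06 (limma adjusted p = 0.000349), a ratio of 1.37 in pair 1 and 1.48 in pair 2. The 29 windows that Cbr1 shares with Cbr3 are 2.40% of its own, and what part of the Cbr1 rise they carry was not tested. Cbr2, a mitochondrial carbonyl reductase first known from mouse lung, had 11.15 and 11.12 in Nrf2-HET libraries and 11.51 and 11.53 in Nrf2-WT libraries. It fell by 0.38 ± 0.05 (limma adjusted p = 1.28e-05), to a 1.34-fold lower normalised count.

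Of the aldo-keto reductases, Akr1b8 was called. Akr1b8, a relative of aldose reductase that fibroblast growth factor induces in mouse fibroblasts, had values of 10.38 and 10.32 in Nrf2-HET libraries, against 9.44 and 9.50 in Nrf2-WT libraries. The difference was 0.88 ± 0.06 (limma adjusted p = 1.17e-08), at rank 69 from the top, and the normalised counts averaged 1069 in Nrf2-HET and 480 in Nrf2-WT. The ratio was 2.35 in pair 1 and 2.11 in pair 2.

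The remaining members of the family were not called. Akr1b10, the closest relative of Akr1b8 here, lay at 8.78 and 8.93 in Nrf2-HET libraries and at 8.91 and 8.76 in Nrf2-WT libraries. The groups overlapped, with pair differences of -0.13 and 0.17, giving 0.02 ± 0.08 (limma adjusted p = 0.889). Akr1b3, the mouse aldose reductase that turns glucose into sorbitol, lay at 9.53 and 9.43 in Nrf2-HET libraries and at 9.49 and 9.59 in Nrf2-WT libraries, a difference of -0.06 ± 0.07 (limma adjusted p = 0.499). Its groups overlapped as well. Gm6644, the pseudogene that shares most of its windows, had nearly the same level, with normalised counts averaging 454 in Nrf2-HET and 503 in Nrf2-WT, beside 484 and 514 for Akr1b3. Gm6644 was not called either (-0.10 ± 0.06, limma adjusted p = 0.201). Akr1a1, the aldehyde reductase that mice need to make ascorbate, had 12.68 and 12.69 in Nrf2-HET libraries and 12.76 and 12.75 in Nrf2-WT libraries. Its difference of -0.07 ± 0.04 was not called (limma adjusted p = 0.226), but it was after quantile normalization (-0.10, limma adjusted p = 0.0291) and without the replicate block (limma adjusted p = 0.0117), a fit that understates the error because the deposited values were already balanced by replicate.

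**Figure D2:**
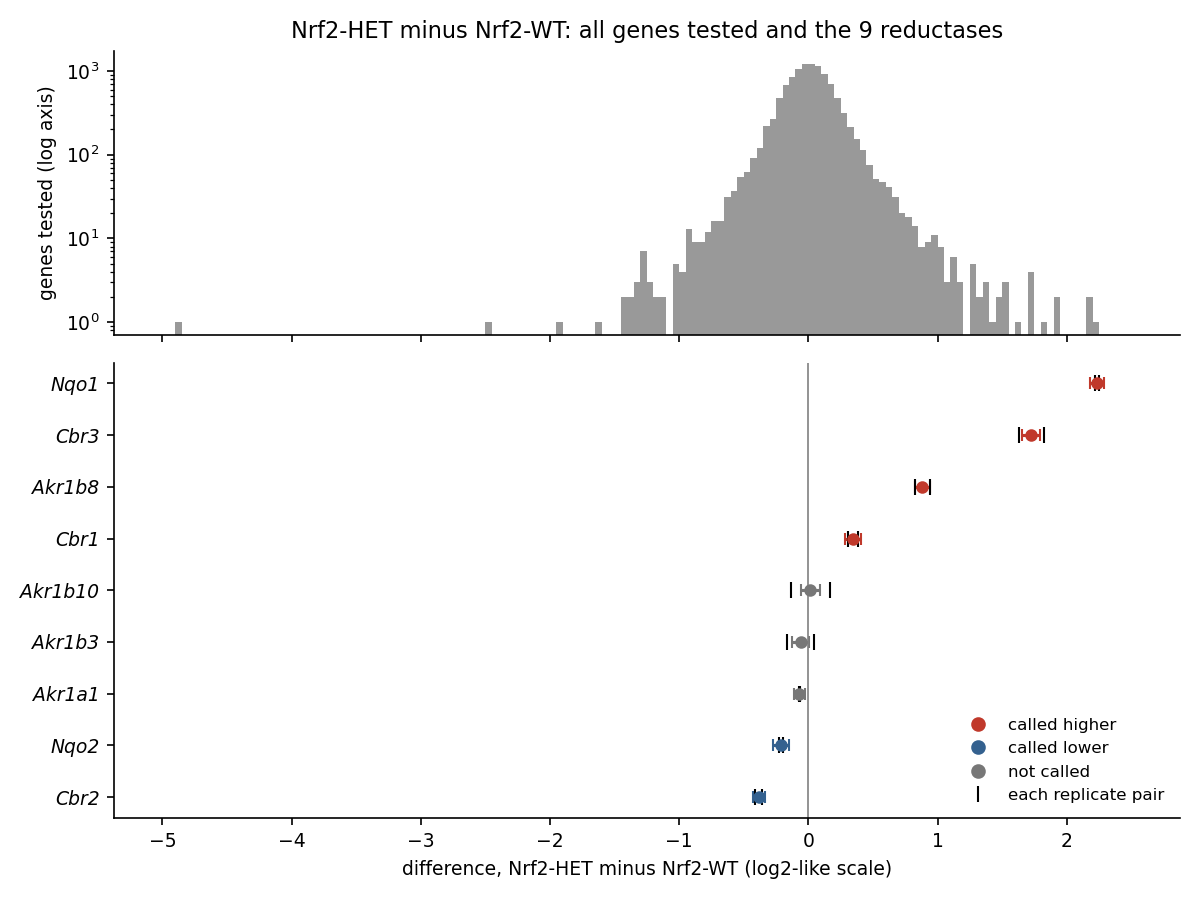
Top, number of the 10857 genes tested (log axis) by difference, Nrf2-HET minus Nrf2-WT, on the log2-like scale; bottom, the same difference for the 9 reductase genes, as points with the limma SE, and black ticks for each of the 2 replicate pairs. Nqo1 at 2.23 and Cbr3 at 1.73 lie in the sparse upper tail, and the ticks of Akr1b10 and Akr1b3 fall on both sides of 0.

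Levels of different genes were compared as normalised counts per kb of the annotated principal transcript. Akr1a1 was the most abundant reductase in both groups, with 4458 per kb in Nrf2-HET and 4686 per kb in Nrf2-WT, followed by Cbr2 with 1809 per kb in Nrf2-HET and 2426 per kb in Nrf2-WT. Below these the order differed. In Nrf2-HET cells Nqo1 had rank 3 (1054 per kb), then Akr1b8 (788 per kb), Cbr3 (555 per kb), Cbr1 (424 per kb), Akr1b3 (349 per kb), Nqo2 (251 per kb) and Akr1b10 (179 per kb). No neighbours in that order overlapped between libraries. In Nrf2-WT cells Akr1b3 (370 per kb) and Akr1b8 (354 per kb) overlapped between libraries, and Nqo2 (319 per kb), Cbr1 (298 per kb) and Akr1b10 (176 per kb) followed. Nqo1 (121 per kb) and Cbr3 (63.7 per kb) were the lowest of the 9 in Nrf2-WT cells. The ranks of Akr1b3, and its overlap with Akr1b8, rest on how reads were split with the pseudogene Gm6644. Normalised counts of Gm6644 averaged 454 in Nrf2-HET and 503 in Nrf2-WT, beside 484 and 514 for Akr1b3. The place of Nqo2 depends on its transcript, since its annotated coding transcripts run from 957 to 3842 bases and 1063 was used, and with the longest it would have 69.5 per kb in Nrf2-HET and 88.4 per kb in Nrf2-WT.

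**Figure D3:**
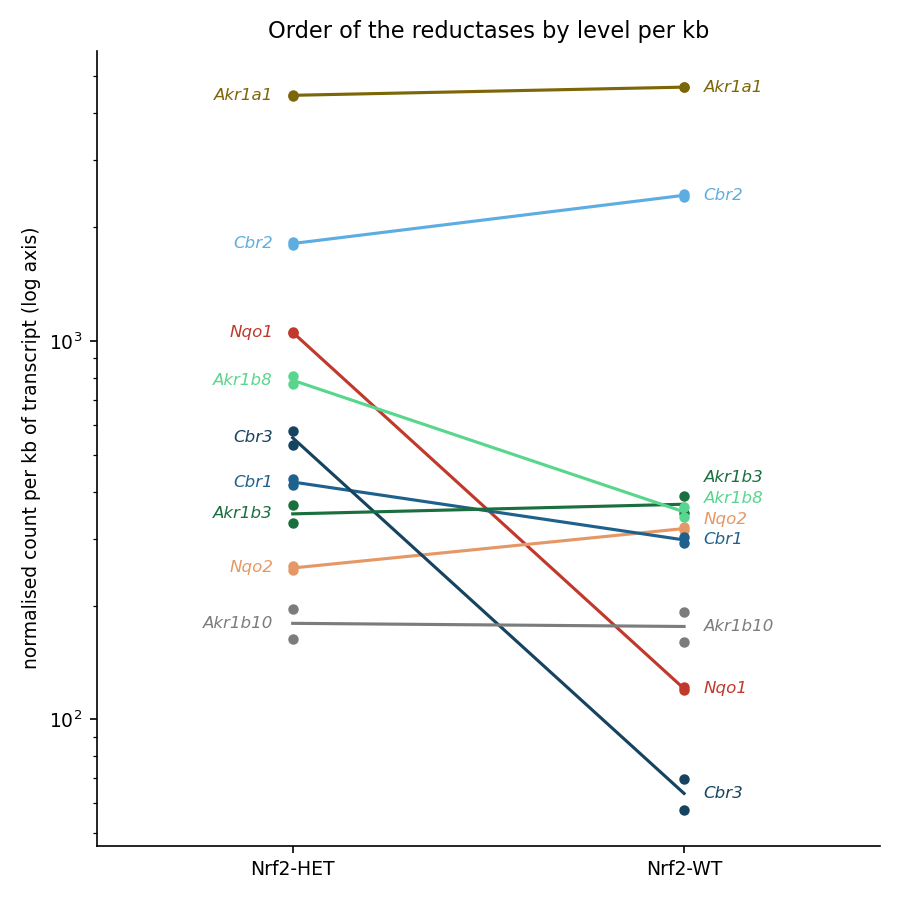
Normalised count per kb of transcript (log axis) of each reductase gene in Nrf2-HET (left) and Nrf2-WT (right); points are the 2 libraries of each group and lines join group means. Nqo1 and Cbr3 cross several of the other genes, at ranks 3 and 5 in Nrf2-HET and 8 and 9 in Nrf2-WT.

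Within families the make-up of the transcripts differed between genotypes, sometimes with little difference in their sum. The 3 carbonyl reductase genes together had 2824 and 2753 per kb in Nrf2-HET libraries and 2764 and 2813 per kb in Nrf2-WT libraries, so the sums overlapped. Within that sum, the level of Cbr3 relative to Cbr2 was 0.317 and 0.296 in Nrf2-HET and 0.0241 and 0.0284 in Nrf2-WT. Cbr3 exceeded Cbr1 in Nrf2-HET, at ratios of 1.39 and 1.23, and lay below it in Nrf2-WT, at 0.190 and 0.239.

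The quinone reductases summed to 1313 and 1297 per kb in Nrf2-HET and to 436 and 444 per kb in Nrf2-WT. The ratio of Nqo1 to Nqo2 was 4.17 and 4.22 in Nrf2-HET and 0.378 and 0.377 in Nrf2-WT, so the more abundant of the pair was Nqo1 in Nrf2-HET and Nqo2 in Nrf2-WT at the transcript length used. The Akr1b genes summed to 1338 and 1294 per kb in Nrf2-HET and to 886 and 914 per kb in Nrf2-WT. Akr1b8 relative to Akr1b3 was 2.20 and 2.32 in Nrf2-HET and 0.977 and 0.934 in Nrf2-WT. Any sum or ratio with Akr1b3 rests on how reads were split between it and Gm6644, which was not tested. Over all 9 genes the sum was 1.12-fold higher in Nrf2-HET, and 1.31-fold higher without Akr1a1. Nqo1 made up 10.7% of the summed level in Nrf2-HET and 1.37% in Nrf2-WT. These ratios and sums are descriptions and were not tested.

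**Figure D4:**
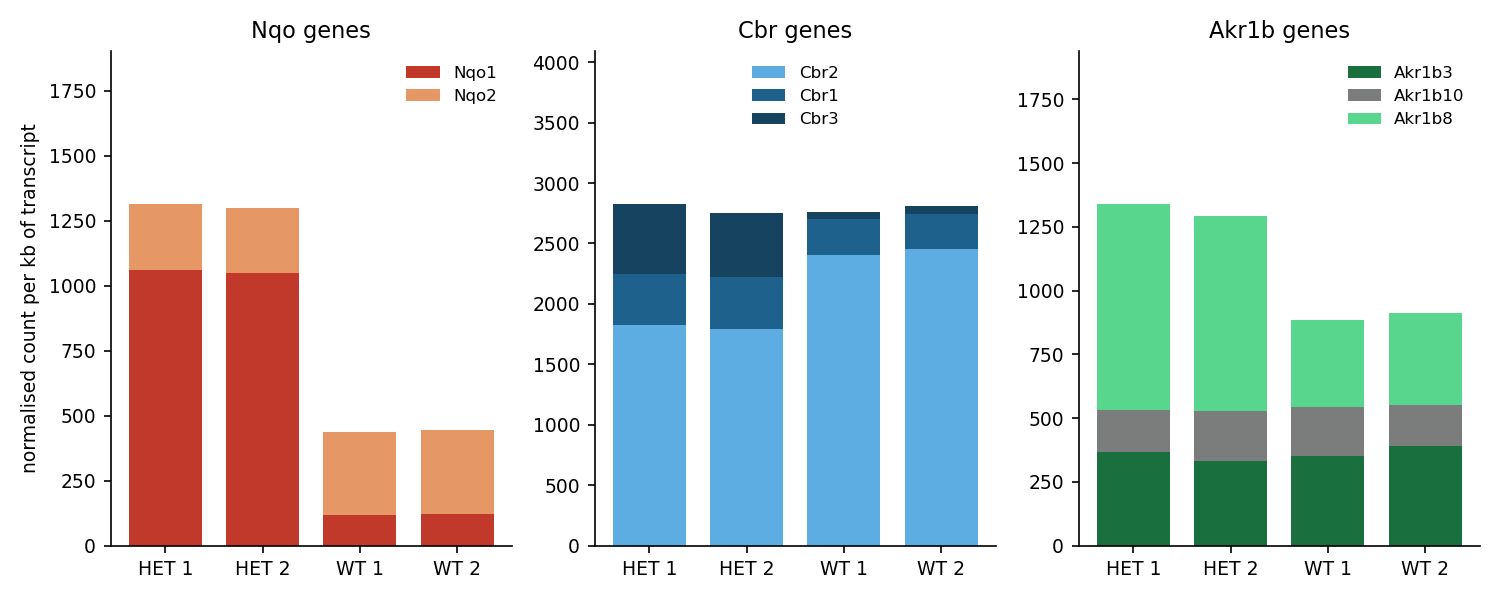
Summed normalised count per kb of transcript (y axis, from 0) in each library, Nrf2-HET left and Nrf2-WT right, for the Nqo, Cbr and Akr1b genes, with colours for single genes. The Cbr bars have nearly equal heights (2753 to 2824 in Nrf2-HET, 2764 to 2813 in Nrf2-WT) but a larger Cbr3 share in Nrf2-HET.

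The promoter windows of the 3 members with the largest rises are shown because NRF2 acts through DNA near its targets. RefSeq (GRCm38.p6) windows, from 250 bases before to 50 after the start site, were matched for 8 of the 9 members, with 9 windows in all since Nqo2 has 2 start sites, and Akr1b3 had no match. Each sequence below is the 120 bases before the start site on the gene's strand, and capitals mark TATAAA or GGGCGG on either strand. They come from chr8:107403206-107403325 (minus strand), chr16:93683099-93683218 (plus strand) and chr6:34354026-34354145 (plus strand):
Nqo1: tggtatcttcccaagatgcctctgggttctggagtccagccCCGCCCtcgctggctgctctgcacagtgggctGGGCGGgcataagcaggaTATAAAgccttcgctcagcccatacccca
Cbr3: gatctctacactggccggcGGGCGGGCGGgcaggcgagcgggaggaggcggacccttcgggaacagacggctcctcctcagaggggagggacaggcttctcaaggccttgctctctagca
Akr1b8: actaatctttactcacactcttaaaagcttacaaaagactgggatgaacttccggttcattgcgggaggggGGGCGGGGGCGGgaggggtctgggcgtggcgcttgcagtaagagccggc

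The core of the antioxidant response element was searched on both strands as TGACNNNGC and as TGAGNNNGC. It was in 0 of the 9 member windows, whereas 27.8% of the 32851 windows of this length in the table hold it, 12.4% as TGACNNNGC and 17.6% as TGAGNNNGC. This says only that these letters are not in these windows, and the element described for the human and rat Nqo1 genes lies farther upstream than they reach. TATAAA was in the windows of Nqo1 and Akr1b8, 2 of 9, against 13.6% of all windows. In Nqo1 it lay on the gene's strand and began 29 bases before the start site. In Akr1b8 it lay on the opposite strand, with its far end 159 bases before the start site. GGGCGG, the box bound by Sp-family factors, was in 5 of 9 windows (Nqo1, Nqo2, Cbr3, Akr1b8 and Akr1b10), against 35.7% of all windows. The overlapping boxes of Cbr3 share bases with each other.

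Related reductases outside the 9 genes were counted in 4 lists, of which 73 of 74 names were in the table and 55 were high enough to test. In these lists 16 rose and 8 fell, where 21.5% and 18.9% of all genes tested did. Of the other aldo-keto reductases 3 of 16 were testable. Of these 0 rose and Akr1e1, which reduces anhydrofructose, fell to 7.75 and 7.69 in Nrf2-HET libraries, against 8.67 and 8.72 in Nrf2-WT libraries (-0.98 ± 0.07, limma adjusted p = 4.20e-08), a 5.89-fold lower normalised count. Both Nrf2-HET values were under the filter, so Akr1e1 was tested only because its Nrf2-WT values were high. None of the 8 Akr1c genes listed, nor Akr1b7, was high enough to be tested.

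Other short-chain dehydrogenases, the superfamily of the Cbr enzymes, had 4 higher and 4 lower of 24 tested, with a median of -0.04. For this and the next lists, the shares over all genes tested were 21.5% higher and 18.9% lower. Dhrs9 and Rdh12, which act on retinoids, rose by 0.83 ± 0.07 and 0.60 ± 0.07, while Hsdl2 and Dhrs1 fell by 0.30 ± 0.06 and 0.25 ± 0.06. Dhrs9, at 7.71 and 7.70 in Nrf2-WT libraries, was under the filter there and was tested only through its Nrf2-HET values. The list of medium-chain quinone and enone reductases, which also holds Adh5 and Adh7, had 5 higher and 0 lower of 10 tested. Its median was 0.14. Ptgr1, which reduces prostaglandins, leukotrienes and other enones, had 11.56 and 11.58 in Nrf2-HET libraries and 9.68 and 9.66 in Nrf2-WT libraries, and Adh7, the alcohol and retinol dehydrogenase of the upper digestive tract, rose by 0.87 ± 0.07. Flavin and NAD(P)H-linked reductases had 7 higher and 3 lower of 18 tested, with a median of 0.05. In that list Blvrb, which reduces biliverdin and flavins, rose to a 6.27-fold higher normalised count, and Sqrdl, the mitochondrial sulfide quinone oxidoreductase, rose by 1.26 ± 0.06. Steap4, a metalloreductase, fell by 0.44 ± 0.07, and Por, the electron donor of microsomal cytochromes, fell by 0.17 ± 0.05.

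**Figure D5:**
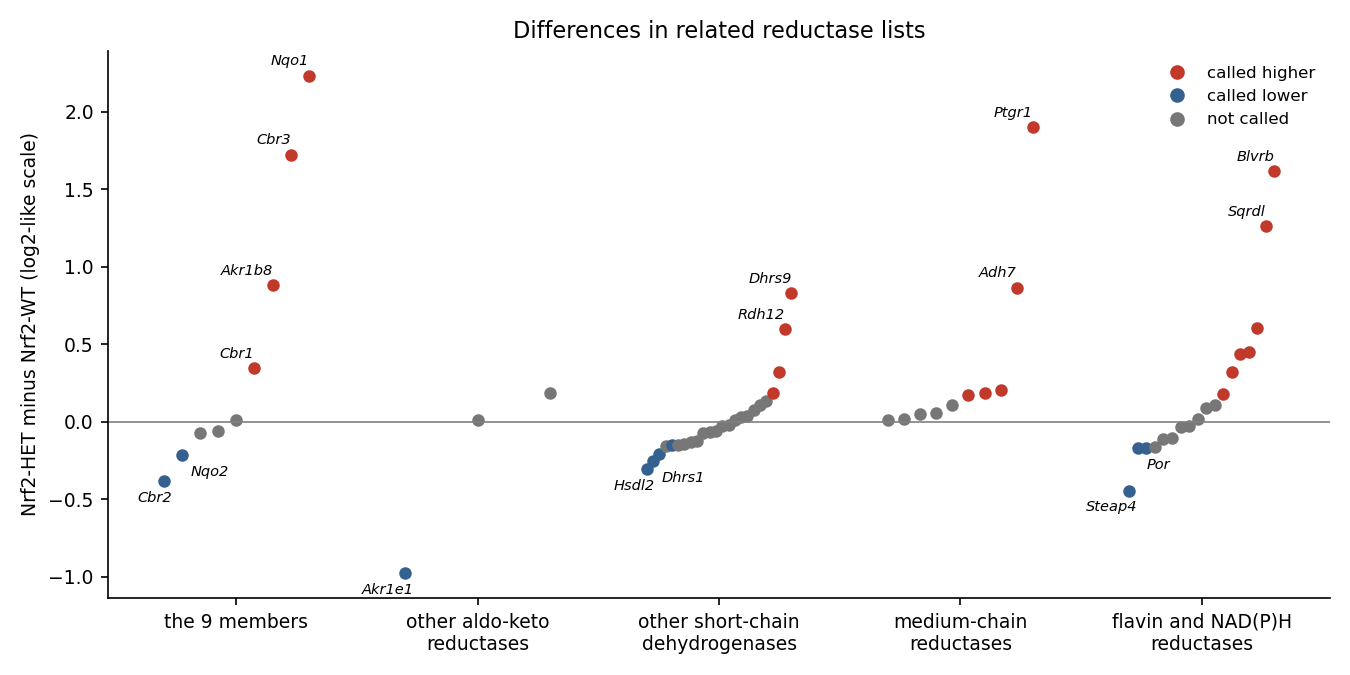
Difference, Nrf2-HET minus Nrf2-WT, on the log2-like scale (y axis) for the 9 reductase genes and the tested genes of 4 related lists (x axis), each point 1 gene, coloured by its limma call and named for members that were called and for up to 2 rises and 2 falls per list. Most genes of the short-chain dehydrogenase list lie near 0, and Akr1e1 at -0.98 is the lowest point shown. Of the named genes, Akr1e1 and Dhrs9 passed the filter only through the group where they were high.

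The genes whose 4 library values, each relative to its own mean, lay nearest to those of a member were looked up by Euclidean distance. With 4 values already balanced by pair, this distance reflects the size of the difference and the spread between pairs and nothing else. Nearest to Nqo1 were Gsta3, a glutathione transferase (distance 0.0563), Il1f9 (0.108) and Gclc, of glutathione synthesis (0.323). Both Nrf2-WT values of Il1f9 were under the filter, so it was among the genes searched only through its Nrf2-HET values. Nearest to Cbr3 were Blvrb (0.179), Ptgr1 (0.213) and Aldh3a1, an aldehyde dehydrogenase (0.222). Nearest to Akr1b8 were Adh7 (0.0205), Trib3 (0.0617) and the haem transporter gene Slc48a1 (0.0680).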

How the data were processed

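Poly(A) RNA was sequenced in 4 libraries. The authors' tools, per the submitters' processing notes, were Salmon 0.11.3, STAR 2.5.2b, DESeq2 and DESeq 1.22.2. The notes name build mm9 and give no role for any of these. The labels state neither a strand setting nor an annotation. The authors deposited variance-stabilised log2-like values. The 2 libraries of replicate 1 and those of replicate 2 have equal sums in every gene (to within 1.31e-13), so the values had been centred on the replicate number, which pairs the libraries (correlation of deviations -1.00 by construction).

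The design text of the series names a human cell line with another targeted gene. It conflicts with the title and sample labels, which were followed.

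Normalised counts q were computed as (y - C)(y - C)/y, with y and C the antilogs of the value and of the floor, and 0 under the floor. In the 1131 genes with reads in 1 library, where centring can be undone, all q were whole multiples of 1 read within 0.02, including 338 with more than 1 read, and 0 of those 338 were whole under a plain log2 shift. For other genes q stays approximate, since it comes from centred values. Depth was estimated from these steps. Counting error was not added.

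Genes at least 1 above the lowest value in at least 2 libraries were tested (10857) with limma 3.58.1 in R 4.3.3, with genotype, a replicate block, a mean-variance trend, two-sided tests and Benjamini-Hochberg adjustment. On 1 residual degree of freedom and 14.6 prior degrees of freedom, most precision is borrowed from other genes. The steps were tested on simulated data. Transcripts and windows were read from GENCODE release M21 (GRCm38) and used for lengths and sequence only. Where principal transcripts had equal coding length, the one of median length was used. Members, lists and tests were chosen with earlier results of these data known. Named genes are the 9 members, up to 2 called rises and 2 called falls per list, and the 3 nearest genes of Nqo1, Cbr3 and Akr1b8. Gm6644 and the genes neighbouring a member were added after values were seen.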

Additional observations from a re-analysis of the deposited data

How the results depend on the processing

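Each member was recomputed under 12 alternatives, and 103 of 108 values kept their direction and their side of the threshold. Much of this is fixed by construction: the fit without the block, both filter choices and the robust fit leave the differences as they are, and the 4 fits without 1 library give only 2 distinct differences per gene. Akr1a1 was called lower without the replicate block (-0.07) and after quantile normalization (-0.10). Akr1b10, not called in any of them, had the opposite sign after median centring (-0.0022) and, with 1 library left out in turn, ran between -0.0595 (without replicate 2 of Nrf2-HET or of Nrf2-WT) and 0.0910. The numbers of called members were 6 in the fit with the replicate block and 7 without it, and the block changed no other call among the members. Without the block the limma adjusted p was larger for Nqo1 (0.000562), Cbr3 (0.00186), Akr1b8 (0.00222), Cbr2 (0.00242) and Cbr1 (0.00397). It was smaller for Nqo2 (0.00439) and for the members not called with the block. Over all genes tested, 4388 were called with the replicate block and 6004 without it, where 2 residual degrees of freedom are counted although the deposited centring had used 1, so its errors are too small. Leaving out 1 library in turn, fitted on genotype alone, gave 5008 to 5463, with 6 called members each time. There the lone library of a group is assumed to vary like the other group, and the deposited centring had already used the library left out. In the related lists 24 were called with the block, 33 without it and 29 or 30 without 1 library. The robust fit, the filter choices, median centring and pseudocounts of 1 and 10 left the number of called members at 6. On the log2 scale of normalised counts with a pseudocount of 1, Nqo1 and Cbr3 rose by nearly the same amount, 3.12 and 3.11. No exact test of 2 pairs can pass the threshold, so every call rests on the spread pooled over genes. No group had enough libraries for a search for outlying samples.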

Other observations

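Protein-coding genes that lie near a member on the chromosome in RefSeq were read beside it. Next to Nqo1, which rose by 2.23, Nob1, of ribosome assembly, rose by 0.46 ± 0.06 (limma adjusted p = 1.11e-05), while Nfat5 (-0.06 ± 0.05), Wwp2 (0.02 ± 0.06) and Cyb5b (-0.03 ± 0.04) were not called. Beside Cbr1 and Cbr3, Runx1, a transcription factor, rose by 0.34 ± 0.05 and Setd4 was too low to test. At the Akr1b cluster, Slc35b4 and Bpgm, which flank it, fell by 0.21 ± 0.07 and 0.25 ± 0.07. Next to Cbr2, Dcxr, also a carbonyl-reducing enzyme, was not called (-0.02 ± 0.07), nor was Rac3 (-0.14 ± 0.07), and Rfng fell by 0.24 ± 0.07. Near Nqo2, Serpinb6a (-0.10 ± 0.05), Ripk1 (-0.06 ± 0.06) and Bphl (0.08 ± 0.07) were not called. Next to Akr1a1, the histone chaperone gene Nasp fell by 0.21 ± 0.05 (limma adjusted p = 0.00196), while the peroxiredoxin gene Prdx1 (0.11 ± 0.04, limma adjusted p = 0.0577) and Mmachc (0.13 ± 0.07) were not called.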
